A study of Mus musculus with 6 samples.

Results

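A set of 10 genes of the intestinal brush border was followed across 6 RNA-seq libraries: Vil1, Espn, Eps8, Myo1a, Ezr, Slc9a3r1, Cdhr2, Cdhr5, Anpep and Mep1a. These are 10 of the 23420 gene rows in the count files, each matched by its symbol. The set was chosen by measured values, namely an even level of Vil1 and a very uneven level of Anpep between these libraries, so the values of those 2 genes are given as a description and are not tested. The libraries came from Meta4 organoids, 1 mouse line of dysplastic epithelial organoids, and hold cells called DP-DSCs and TP-DSCs, separated by fluorescence-activated sorting, with 3 libraries of each group. The labels name no treatment, time, genotype or age. Knowledge of the study, and not the labels, places the origin of the line in the dysplastic mouse stomach and reads DSC as dysplastic stem cell; the gates of the sort are not given in the sources used. All 6 libraries therefore share 1 organoid line, and the labels do not say whether the samples came from separate cultures, and every p-value below rests on a spread among samples that could be technical.

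The brush border is the dense carpet of microvilli on the apical face of absorptive enterocytes. Each microvillus holds a bundle of parallel actin filaments, made by villin (Vil1), espin (Espn) and plastin, and tipped by Eps8. Myosin-1a (Myo1a) and ezrin (Ezr), the latter anchored to membrane proteins through the scaffold NHERF1 (Slc9a3r1), tie the bundle to the membrane. The protocadherins Cdhr2 and Cdhr5 join neighbouring microvilli at their tips, where the scaffold Ush1c, the ankyrin protein Anks4b, the motor Myo7b and its light chain Calml4 hold them to the actin. The membrane carries digestive enzymes such as aminopeptidase N (Anpep, also known as CD13) and meprin alpha (Mep1a). Villin is also made by tuft cells and by epithelia outside the gut, and aminopeptidase N by fibroblasts and myeloid cells.

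Reads assigned to genes ranged from 17015581 to 32671039 per library. Genes with reads numbered 12504 to 14434 in DP-DSCs and 10571 to 10982 in TP-DSCs, so the TP-DSC libraries held fewer genes. Each library name carries the number 3840 or 4140; its meaning is not given by the labels. The number 3840 covers replicate 1 of each group, and 4140 covers replicates 2 and 3 of each. The epithelial genes Epcam, Cdh1, Krt8, Krt18 and Krt19 summed to 7446 to 9758 CPM (reads of a gene per 1e+06 gene reads of its library) in the 6 libraries. The intestinal side of the label was met only in part. Cdx1 and Cdx2, the transcription factors that define intestinal epithelium, had no reads in any library. Of 12 enterocyte markers 5, among them Sis, Alpi and Apoa4, had none either. Sums over the list were 71.0 to 101 CPM in the libraries named 3840 and 23.3 to 144 CPM in those named 4140, mostly Apob and Krt20. The other markers with reads reached at most 0.918 CPM (Fabp2) and had no reads in TP-DSCs.

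The bases just before the transcription start are shown for 5 members, so that the letters can be set beside the values. Vil1 and Ezr had even levels and Anpep and Espn uneven ones. Cdhr2 had a smaller SD of log2 CPM than these last, which both include libraries without reads. The windows hold 250 bases ending at the RefSeq start on GRCm38.p6, the assembly of mm10; 9 of the 10 members had a window. Vil1 lies on the plus strand at chr1:74409134-74409383, Ezr on the minus strand at chr17:6782781-6783030, Anpep on the minus strand at chr7:79848211-79848460, Espn on the minus strand at chr4:152152390-152152639 and Cdhr2 on the plus strand at chr13:54701213-54701462. Capitals mark matches, on either strand, to any of 6 short motifs. The letters searched were GTTAAT for HNF1 and CAAAGTC for HNF4, both nuclear regulators of gut epithelial genes. For the intestinal factors of the CDX family they were TTTAT. Zinc finger proteins of the GATA family were represented by the letters GATAAG. The GC box, bound by Sp1, was searched as GGGCGG. The sequence TATAAA was taken for the core promoter element of that name. The CDX letters can overlap those of this last element.
Vil1: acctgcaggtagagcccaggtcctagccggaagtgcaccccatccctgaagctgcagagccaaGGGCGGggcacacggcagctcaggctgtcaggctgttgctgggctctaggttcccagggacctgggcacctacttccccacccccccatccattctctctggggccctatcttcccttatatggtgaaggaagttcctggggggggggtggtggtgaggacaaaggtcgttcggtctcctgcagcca
Ezr: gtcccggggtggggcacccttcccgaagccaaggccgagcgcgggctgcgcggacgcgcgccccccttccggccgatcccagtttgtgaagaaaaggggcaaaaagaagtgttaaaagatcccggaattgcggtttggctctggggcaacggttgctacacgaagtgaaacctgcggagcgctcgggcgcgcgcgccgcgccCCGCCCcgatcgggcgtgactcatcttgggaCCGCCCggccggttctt
Anpep: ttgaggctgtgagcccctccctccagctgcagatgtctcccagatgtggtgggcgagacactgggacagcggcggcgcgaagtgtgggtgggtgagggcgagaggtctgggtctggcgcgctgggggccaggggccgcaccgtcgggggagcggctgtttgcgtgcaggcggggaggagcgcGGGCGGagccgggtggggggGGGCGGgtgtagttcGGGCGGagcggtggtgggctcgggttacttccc
Espn: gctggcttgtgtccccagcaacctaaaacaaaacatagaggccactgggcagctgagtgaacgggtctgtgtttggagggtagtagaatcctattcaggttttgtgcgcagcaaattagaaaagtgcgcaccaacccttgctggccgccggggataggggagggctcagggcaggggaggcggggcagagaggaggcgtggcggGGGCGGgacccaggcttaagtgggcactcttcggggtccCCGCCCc
Cdhr2: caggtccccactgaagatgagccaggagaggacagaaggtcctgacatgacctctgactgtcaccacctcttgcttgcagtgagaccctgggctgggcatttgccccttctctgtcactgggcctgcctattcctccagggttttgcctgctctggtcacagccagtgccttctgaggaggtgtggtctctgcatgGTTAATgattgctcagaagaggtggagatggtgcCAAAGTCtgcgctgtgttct

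The GC box was found once before Vil1, 2 times before Ezr, 3 times before Anpep and 2 times before Espn, and in 32.7% of all 32851 windows of this length. Cdhr2 alone of the 5 held the HNF1 letters, at position -54 from the start, and the HNF4 letters, at position -20; these letters occur in 6.43 and 3.84% of all windows. None of the 5 windows shown held the CDX, GATA or TATA box letters, which occur in 37.3, 6.55 and 12.4% of all windows. The Anpep window had a GC content of 72.8% and 23 CpG pairs, the Ezr window 67.2% and 32, the Vil1 window 62.8% and 5, the Espn window 61.6% and 11 and the Cdhr2 window 56% and 1. The even Ezr thus had more CpG pairs than the uneven Anpep. GENCODE M21 also lists Anpep transcripts that start downstream at base 79842352 and upstream at base 79861059 of chromosome 7. Gene counts do not tell these starts apart, so the window shown need not be the start in use. Espn has 3 start windows in RefSeq, of which the first is shown; the third holds the CDX letters at position -195 and 1 GC box. A match of letters is a description, not a binding site.

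**Figure D1:**
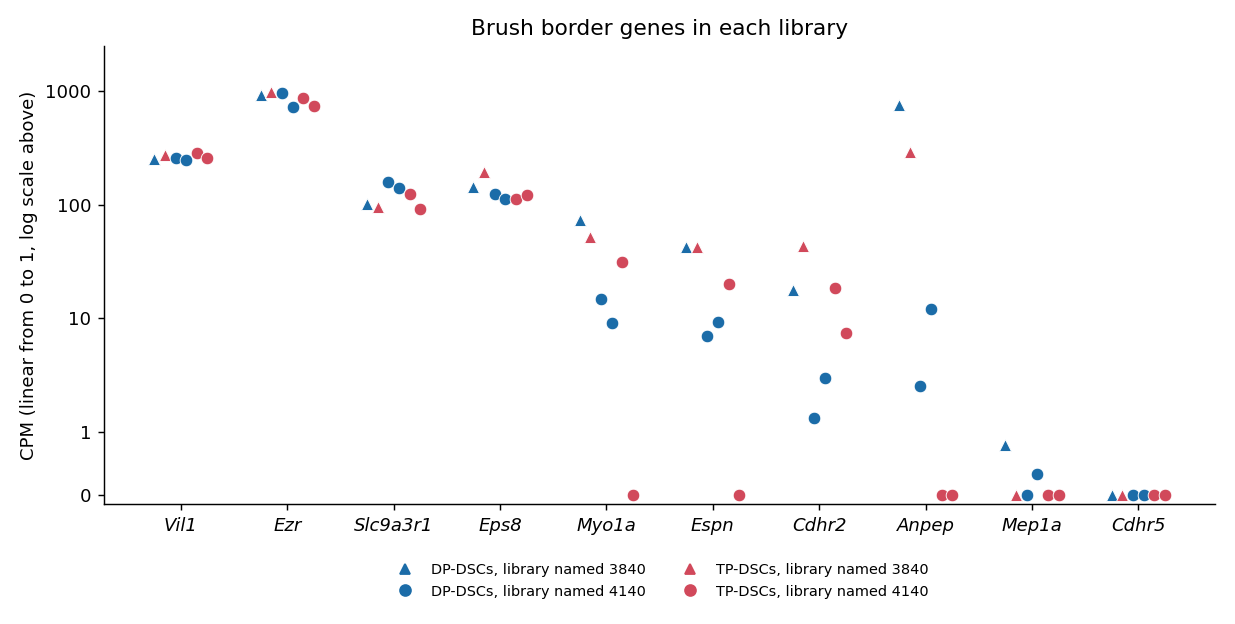
Level of each member in each library, in CPM on an axis that is linear from 0 to 1 and logarithmic above; blue is DP-DSCs, red is TP-DSCs, triangles are libraries named 3840 and circles those named 4140. Vil1 spans 245 to 287 CPM, while Anpep spans 0 to 753.

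The actin bundlers of the microvillus core differed widely in how even they were. Vil1 (gene on chromosome 1 from 74409376 to 74435559) stood at 250.5, 255.8 and 245.4 CPM in DP-DSCs replicates 1, 2 and 3 and at 276, 287 and 258 CPM in TP-DSCs replicates 1, 2 and 3. Its highest library was 1.17 times its lowest, and the lowest TP-DSC library (257.7 CPM) lay just above the highest DP-DSC library (255.8 CPM). The SD of its log2 CPM over the 6 libraries was 0.09. Espn, which bundles actin without the severing activity of villin, stood at 42.6, 6.95 and 9.36 CPM in DP-DSCs and at 42.5, 20.1 and 0 CPM in TP-DSCs, in the same order. Both libraries named 3840 were therefore higher for Espn than the other 4, and 1 TP-DSC library had no reads.

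Eps8, which caps and bundles actin at the microvillus tip, had an SD of log2 CPM reached by 59.3% of the 2902 tested genes within 2-fold of its mean level. It stood at 144, 125 and 113 CPM in DP-DSCs and at 194, 112 and 121 CPM in TP-DSCs. The 2 groups overlapped, and the highest library was TP-DSCs replicate 1.

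The linkers between bundle and membrane held both abundant and uneven genes. Ezr (chromosome 17 from 6738041 to 6782784) was the most abundant member at 932, 964 and 724 CPM in DP-DSCs and 980, 871 and 733 CPM in TP-DSCs, with the groups overlapping. Slc9a3r1 stood at 102, 159 and 140 CPM in DP-DSCs and at 94.6, 124 and 90.9 CPM in TP-DSCs, again with overlap. Myo1a, the motor that bridges bundle and membrane, was uneven like Espn. It stood at 72.8, 14.8 and 9.10 CPM in DP-DSCs and at 51.8, 31.4 and 0 CPM in TP-DSCs. Only 0.414% of the 4593 tested genes within 2-fold of the mean level of Myo1a had as large an SD of log2 CPM. The share for Espn was 1.52% of 3960 genes. Both SDs take in the 0 of TP-DSCs replicate 3, whose log2 value is set by the prior count of 2.

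Of the protocadherins that link microvilli, Cdhr2 had reads in every library and Cdhr5 in none. Cdhr2 stood at 17.8, 1.32 and 2.997 CPM in DP-DSCs and at 43.2, 18.6 and 7.47 CPM in TP-DSCs. Its highest library was 32.8 times its lowest, and the lowest 2 were both DP-DSC libraries named 4140. Such a spread was not rare: 17.1% of the 3322 tested genes within 2-fold of its mean level had as large an SD of log2 CPM. For Cdhr5, 3 counts in a library would be 0.0918 to 0.176 CPM, the most that a count of 0 allows. This limit covers counting error only, since amplified reads are not independent molecules.

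Of the 2 membrane enzymes, Anpep varied most of all members and Mep1a was nearly absent. Anpep (chromosome 7 from 79821803 to 79861059) had 24537, 83 and 327 reads in DP-DSCs and 7203, 0 and 0 reads in TP-DSCs, which is 753, 2.54 and 12.1 CPM and 289, 0 and 0 CPM. In both libraries named 3840 the Anpep level was at or above that of Vil1, at 3.005 and 1.05 times the Vil1 CPM in DP-DSCs and TP-DSCs, and in the DP-DSC libraries named 4140 it was 0.00993 and 0.0493 times. The SD of its log2 CPM was 5.72, with a prior count of 2, which sets the value of the libraries at 0. Mep1a had 26 reads in DP-DSCs replicate 1, 9 in DP-DSCs replicate 3 and none in the other 4 libraries. It did not pass the filter on low counts, nor did Cdhr5, so 8 of the 10 members were tested or described in the fits.

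Zeros in the TP-DSC libraries were common at such levels. Of 2154 genes averaging 4 to 16 CPM in the DP-DSC libraries named 4140, where Anpep averaged 7.32, Myo1a 11.9 and Espn 8.15 CPM, 22.0% had no reads in TP-DSCs replicate 2 and 20.5% in TP-DSCs replicate 3. Taken 1 library at a time, a zero like that of Anpep was thus shared with about 1 in 5 genes of that level (22.0 and 20.5%). The share of genes without reads in both libraries was not counted. The zeros of Myo1a and Espn in TP-DSCs replicate 3 were likewise shared with 20.5% of these genes. In TP-DSCs replicate 2, Myo1a and Espn had 534 and 342 reads. In bulk RNA, fewer cells that express a gene and less RNA per cell cannot be told apart.

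Scaled by the length of the longest coding transcript in GENCODE M21, the abundant members could be ordered, and the uneven ones could not. The median over libraries was 285 CPM per kb for Ezr, 82.2 for Vil1, 58.7 for Slc9a3r1 and 26.95 for Eps8. Ezr did not overlap any other member over the libraries, whereas Vil1 (78.55 to 91.9 CPM per kb) and Slc9a3r1 (47.2 to 82.6) overlapped. Eps8 (24.4 to 42.55 CPM per kb) lay below both. The medians of Myo1a, Espn, Cdhr2 and Anpep were 6.71, 3.19, 3.06 and 1.93 CPM per kb, and the ranges of these 4 genes overlapped; that of Anpep ran from 0 to 198 and so also spanned those of Vil1, Slc9a3r1 and Eps8.

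**Figure D2:**
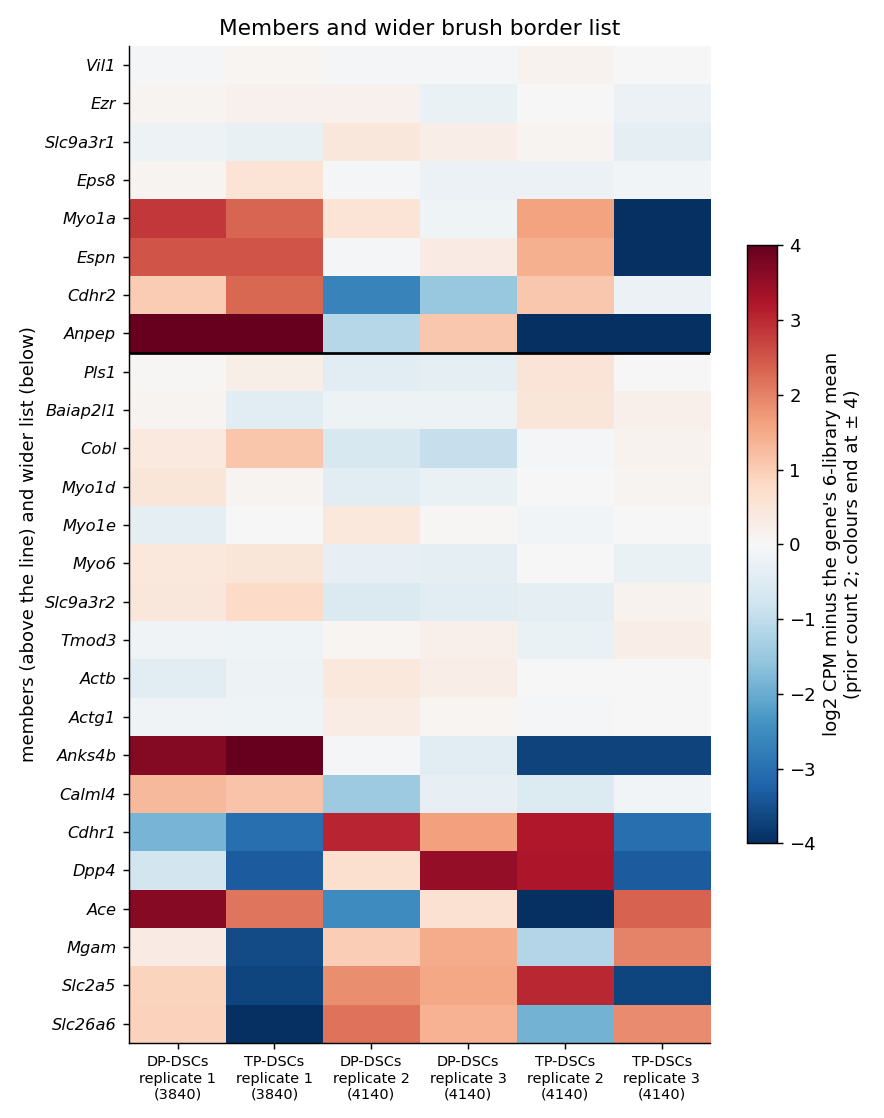
Log2 CPM of each tested gene in each library, minus the gene's mean over the 6 libraries (prior count 2, colours end at ± 4); members stand above the line and the wider brush border list below. Anpep, Myo1a, Espn and Anks4b are high in both libraries named 3840, and Vil1 is nearly without colour.

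No member passed the test between TP-DSCs and DP-DSCs. Of the 6 members tested (all but Vil1, Anpep, Cdhr5 and Mep1a), 0 had an adjusted p under 0.05 in edgeR's quasi-likelihood test, against 0% of all 11925 genes tested. At an unadjusted p under 0.05 there were 0 of the 6 members and 728 of all genes; DESeq2 called 0 of the 6 and 0.780% of all genes, and limma-voom 0 of either. Cdhr2 had the largest log2 fold change, TP-DSCs minus DP-DSCs, at 1.63 ± 1.14 (SE), from 7.37 ± 9.07 CPM (SD, n = 3) in DP-DSCs to 23.1 ± 18.3 CPM (SD, n = 3) in TP-DSCs; the edgeR adjusted p was 0.999. Its size rested on single libraries, with 3.43 without DP-DSCs replicate 1 and 0.70 without TP-DSCs replicate 1. Slc9a3r1 had the smallest p of the 6, with 134 ± 29.2 and 103 ± 18.3 CPM and a log2 fold change of -0.38 ± 0.21 (SE; edgeR adjusted p = 0.999).

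The other 4 lay close to 0, but with very different precision. Ezr had a log2 fold change of -0.02 ± 0.23 (SE) and Eps8 of 0.16 ± 0.29. Myo1a and Espn had -0.22 ± 1.65 and 0.09 ± 1.68, standard errors so wide that a several-fold difference in either direction was not detectable with these libraries. As a description, Vil1 had 0.11 ± 0.16 and Anpep -1.38 ± 2.67. The sign for Anpep rested on 1 library: without DP-DSCs replicate 1 its log2 fold change was 3.78, since TP-DSCs replicate 1 then held nearly all reads. The median over the 8 members was 0.03, beside -0.02 over all tested genes, and it went to 0.77 without DP-DSCs replicate 1, -0.31 without TP-DSCs replicate 1 and -0.22 in limma-voom.

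**Figure D3:**
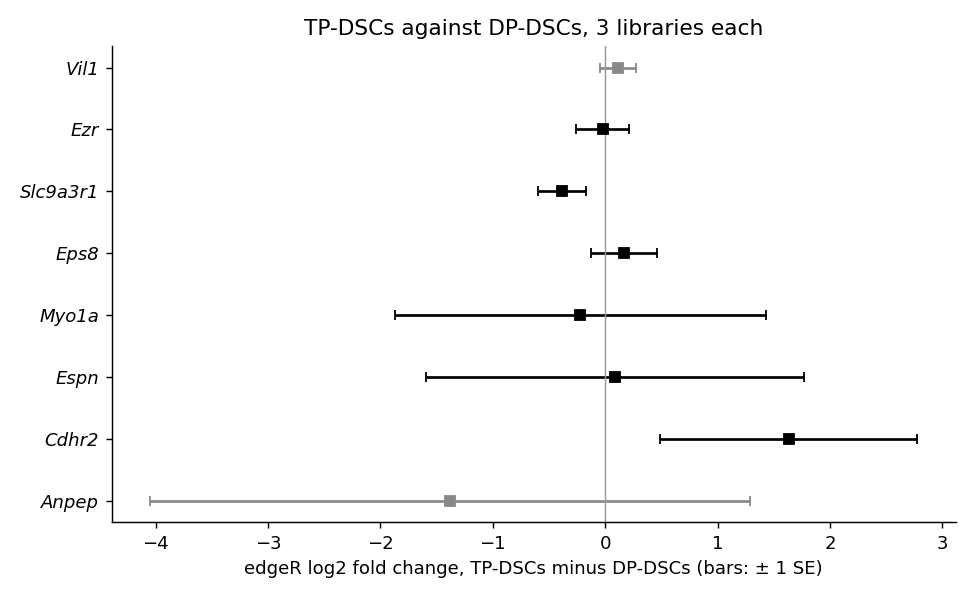
EdgeR log2 fold change of each tested member, TP-DSCs minus DP-DSCs (squares), with bars of ± 1 SE; grey marks Vil1 and Anpep, whose values chose the set. Bars are short for Vil1, Ezr, Slc9a3r1 and Eps8 and wide for Myo1a, Espn, Cdhr2 and Anpep.

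All 6 tested members other than Vil1 and Anpep overlapped between the groups: 0 were higher in every TP-DSC library and 0 lower, against 3.87 and 8.56% of all tested genes. These 6 are too few to read against such shares. Within the libraries named 3840, with 1 of each group, Cdhr2 differed by 1.27 (log2 CPM, TP-DSCs minus DP-DSCs), and in those named 4140 by 2.52, so each TP-DSC library exceeded the DP-DSC libraries of its own number. Slc9a3r1 differed by -0.10 and -0.49, and Vil1 by 0.14 and 0.12, in the same order. Ezr differed by 0.07 and -0.06 and Eps8 by 0.43 and -0.03. Myo1a differed by -0.49 and -2.95 and Espn by -0.0057 and -2.75, where the second value of each carries the 1 TP-DSC library without reads. For none of the 6 members did edgeR find that the group difference itself differed between the numbers (the smallest adjusted p was 0.976, for Eps8); over all genes edgeR called 0, with 788 at an unadjusted p under 0.05.

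The members were also set against the number in the library name, because Anpep, Myo1a and Espn were highest in both libraries named 3840. This comparison was added after the values were known, and it is the contrast along which Anpep had been chosen. Anpep averaged 521 CPM in the libraries named 3840 and 3.66 CPM in those named 4140; Vil1 averaged 263 and 261.5 CPM. Of the 6 other tested members, 3 (Myo1a, Espn and Eps8) had both 3840 libraries above all 4140 libraries and 0 had both below. The shares of all tested genes were 9.95 and 13.5%. Because Myo1a and Espn had prompted the comparison, the count of 3 is a description and cannot be read against these shares. Myo1a averaged 62.3 CPM in 3840 and 13.8 in 4140, Espn 42.5 and 9.10, Eps8 169 and 118, and Cdhr2 30.5 and 7.60.

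With group and number as terms, edgeR called 0 of the 6 members and 0% of all genes by number (1109 of 11925 at an unadjusted p under 0.05, of which Cdhr2 and Eps8 were 2). The log2 fold change, 3840 minus 4140, was 2.55 ± 0.74 (SE) for Cdhr2, 0.65 ± 0.18 for Eps8, 2.33 ± 1.54 for Myo1a and 2.37 ± 1.58 for Espn, with edgeR adjusted p of 0.401, 0.391, 0.67 and 0.673. Ezr had 0.36 ± 0.19 and Slc9a3r1 -0.23 ± 0.22. DESeq2 called Cdhr2 (adjusted p = 0.00366) and Eps8 (adjusted p = 0.0103) with 9.87% of all genes, so 2 of 6 members stood beside 9.87% of the background, too few members to read against it; limma-voom called 0 of the 6 and 55 genes in all. In edgeR without TP-DSCs replicate 1, Eps8 had 0.36 (adjusted p = 0.9999). Without TP-DSCs replicate 2, Myo1a had 5.27 and Espn 5.36, with edgeR adjusted p of 0.457 and 0.486.

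**Figure D4:**
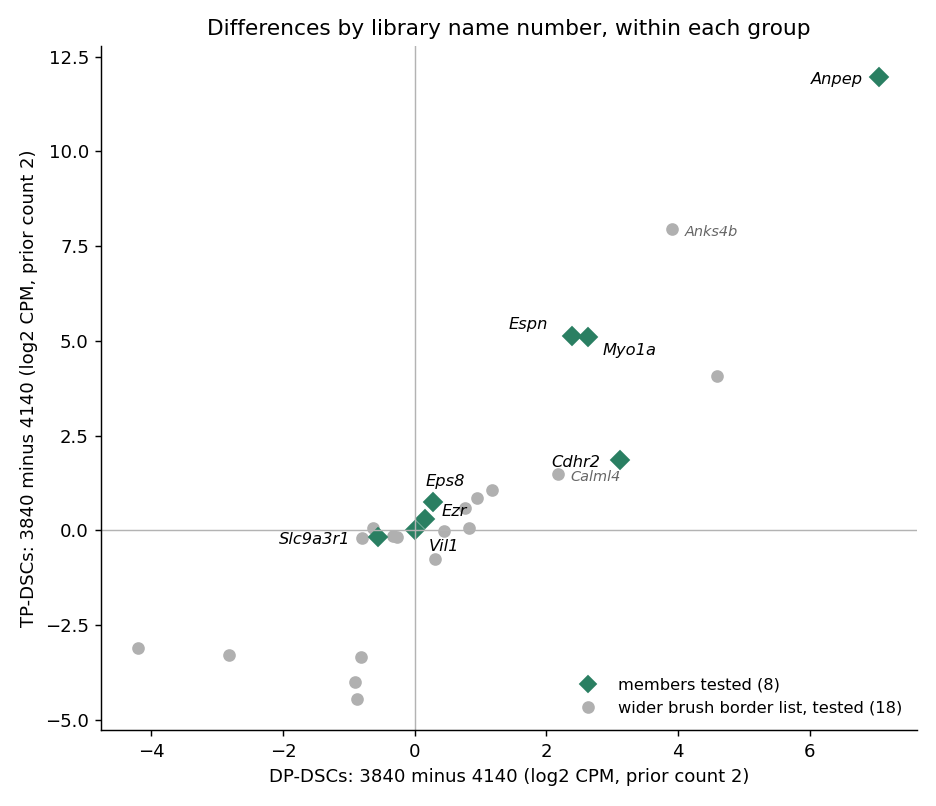
Difference in log2 CPM (prior count 2) between libraries named 3840 and 4140, in DP-DSCs on the horizontal axis and in TP-DSCs on the vertical axis, for the 8 tested members (diamonds) and 18 tested genes of the wider brush border list (grey circles). Anpep lies farthest up at 7.06 and 12.0, Espn and Myo1a lie near 5.1 in TP-DSCs, and Vil1 lies at 0.00 and 0.02.

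Other genes of the structure, from lists written by role, also held both abundant and absent parts. The wider list held 46 genes: core and linker proteins, genes listed under the tip-link complex, hydrolases and apical transporters. Of these, 11 had no reads in any library and 18 were tested; 8 were higher and 10 lower in TP-DSCs, 0 were called by edgeR, DESeq2 or limma-voom, and the median log2 fold change was -0.08. The most abundant were core and linker genes. Actb and Actg1, the cytoplasmic actins, averaged 1121 and 1036 CPM, Tmod3, which caps filament ends, 291 CPM, and Pls1, the plastin of the bundle, 110.0 CPM with 78.9 CPM in the lowest and 153 CPM in the highest library.

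Among the listed partners of Cdhr2 at the microvillus tip, Calml4 and Anks4b split by library number. Calml4, the myosin light chain of that complex, stood at 129, 19.1 and 42.5 CPM in DP-DSCs and at 118, 36.1 and 48.7 CPM in TP-DSCs. Anks4b stood at 12.1, 0.857 and 0.629 CPM in DP-DSCs and at 18.0, 0 and 0 CPM in TP-DSCs. For both genes the 2 libraries named 3840 were higher than the other 4. Cdhr1, from the same list but not among the tip-link parts named at the start, had its highest levels in libraries named 4140. It had no reads in TP-DSCs replicate 3, also named 4140. It stood at 0.092, 4.84 and 1.78 CPM in DP-DSCs and at 0, 5.35 and 0 CPM in TP-DSCs. Its log2 fold change, 3840 minus 4140, was -6.17 ± 3.21 (SE). Ush1c and Cdhr3 had no reads in any library, and Myo7b reached at most 0.999 CPM, so transcripts of 3 named parts of the tip-link complex (Cdhr5, Ush1c and Myo7b) were at or near 0 where Cdhr2 and Calml4 were present.

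By number, 6 of the 18 wider genes (Cobl, Myo1d, Myo6, Slc9a3r2, Anks4b and Calml4) had both 3840 libraries above all 4140 libraries and 2 (Actb and Actg1) had both below, against 9.95 and 13.5% of all tested genes. EdgeR called 0 of the 18 by number and limma-voom 0, while DESeq2 called 5, against 9.87% of all genes, namely Cobl, Myo6, Slc9a3r2, Anks4b and Calml4. Cobl, an actin nucleator of the brush border, had a log2 fold change, 3840 minus 4140, of 1.26 ± 0.20 (SE; edgeR adjusted p = 0.163). The digestive enzymes Sis, Treh, Alpi and Enpep had no reads, and 3 of 14 hydrolases were tested: Ace, Mgam and Dpp4, averaging 21.7, 14.9 and 2.78 CPM. Of 14 apical transporters 2 were tested, Slc26a6 and Slc2a5, averaging 3.38 and 2.47 CPM. By number, 8 of the 18 wider genes were higher in 3840, with a median log2 fold change, 3840 minus 4140, of -0.08. Mgam had -2.28 ± 1.44 (SE), Dpp4 -5.14 ± 3.37, Slc26a6 -2.685 ± 2.63 and Slc2a5 -2.65 ± 3.38, opposite in sign to Anpep. Ace had 2.72 ± 1.97.

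The genes with profiles most like that of Anpep were found by the root mean square difference of centred log2 CPM over the 6 libraries, among 10295 tested genes averaging at least 5 CPM. The nearest were AA467197 (1.44), Cyp2b10 (1.56), Gif (1.61), Ces1d (1.71) and Fam13a (1.74). Gif, the intrinsic factor that mouse gastric chief cells secrete, stood at 97.75, 2.57 and 0.851 CPM in DP-DSCs and at 40.8, 0 and 0 CPM in TP-DSCs. Cyp2b10, a cytochrome P450, stood at 59.5, 3.58 and 4.51 CPM and at 38.6, 0 and 0 CPM. Espn and Myo1a were 123rd and 150th in this order (3.92 and 4.01), and Vil1 was 4814th. Nearest to Vil1 were Rad51d (0.05), Hspe1 (0.05), Fam168a (0.06), Tubb4b (0.07) and Pabpc4 (0.07), all nearly flat.

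**Figure D5:**
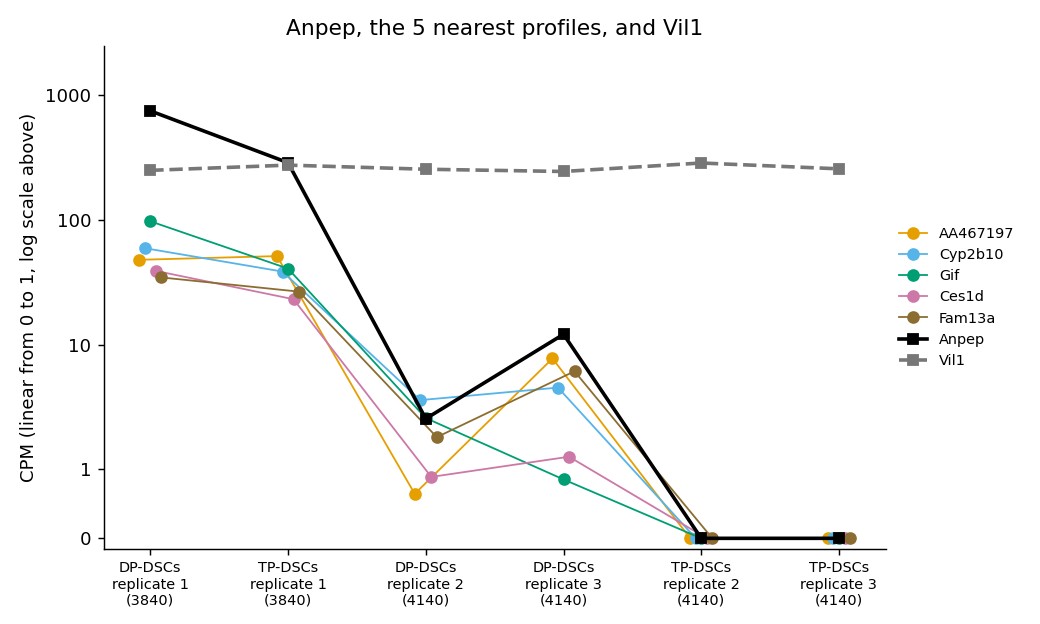
CPM of Anpep, of the 5 genes with the nearest profiles and of Vil1 in each library, on an axis linear from 0 to 1 and logarithmic above; lines only join the points of a gene. All 5 neighbours and Anpep have no reads in TP-DSCs replicates 2 and 3, where Vil1 stands at 287 and 258 CPM.

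Markers of cells that could carry these transcripts were set beside them. Of 11 gastric chief, parietal and mucous markers, 9 had reads, and their summed level was 380 to 401 CPM in the libraries named 3840 and 8.33 to 126 CPM in those named 4140, a split in the direction of Anpep; their part in the Anpep result was not tested. Atp4b and Pga5 were at 0. In the libraries named 3840 the sum was mostly Tff2, Gif, Muc6, Tff1 and Pgc. Other listed genes did not follow this split. Muc5ac and Gkn2 had reads only in 4140, and Gkn1 reached 1.41 CPM there against 0.245 CPM in 3840. Muc6 and Atp4a were higher in TP-DSCs replicate 2 (4140), at 77.4 and 8.17 CPM, than in DP-DSCs replicate 1 (3840), at 70.3 and 2.21 CPM. Of 10 goblet, Paneth and endocrine markers, 7 had reads, with sums of 544 to 1142 CPM in 3840 and 44.7 to 209 CPM in 4140, mostly Mmp7.

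For fibroblasts and myeloid cells, the other cell types known for Anpep, some markers had no reads, and others (Fbln1 and Cd68) were present and higher in both libraries named 3840. Of 10 fibroblast markers 6, among them Col1a2, Col3a1, Pdgfrb and Dcn, had no reads in any library; the sums were 69.7 to 92.9 CPM in 3840 and 36.5 to 57.0 CPM in 4140, mostly Fbln1, which stood at 89.7 and 67.05 CPM in 3840 and at 35.8 to 52.3 CPM in 4140. Of 9 immune markers 3 had no reads, and Ptprc, the pan-leukocyte gene CD45, reached at most 0.0920 CPM, with sums of 42.3 to 90.9 CPM in 3840 and 32.9 to 67.6 CPM in 4140, mostly Cd14 and Cd68. Cd68, a lysosomal protein of macrophages, stood at 47.3 and 17.3 CPM in 3840 and at 0 to 12.8 CPM in 4140, and Cd14 at 25.0 to 54.65 CPM over all libraries. The part of these cells in the Anpep result was not tested. Of 6 endothelial markers 2 were at 0 and the sums were 0 to 4.995 CPM. Of 9 tuft cell markers 3 were at 0. Their sums were 42.1 to 156 CPM in DP-DSCs and 79.8 to 153 CPM in TP-DSCs, mostly Dclk1 and Avil. By number these sums were 42.1 to 79.8 CPM in 3840 and 113 to 156 CPM in 4140, opposite in direction to Anpep. Vil1 stayed between 245 and 287 CPM.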

How the data were processed

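Libraries of 3 DP-DSC and 3 TP-DSC samples were made with a stranded kit from polyA RNA, as the labels' protocols state. Each deposited file gives whole-number read counts by gene, which the authors left unnormalized as far as the values show. STAR 2.7.3a, Partek, DESeq2 3.5 and build mm10 are named per the submitters' processing notes. What each tool did, the counter and its strand setting: not given in the sources used here. Vil1 overlaps Usp37, and Ezr overlaps Sytl3, on the other strand, so reads of these pairs may be mixed. Anpep overlaps Gm44974, and Eps8 overlaps Gm44106, on the same strand, and the effect on their counts was not tested. Rows for reads in no gene (14.1 to 20.3% of reads) and ambiguous reads (1.09 to 1.86%) were left out.

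CPM is the count over the library's gene reads. Counts were tested in R 4.3.3 with edgeR 4.0.16 (filterByExpr with minimum count 10, trimmed mean of M values, quasi-likelihood F test, Benjamini-Hochberg over all tested genes, threshold 0.05); the SE is the log2 fold change over the square root of F. Within-number differences and profiles used log2 CPM with a prior count of 2. DESeq2 1.42.0 and limma-voom (limma 3.58.1) were alternatives, with other scalings, filters, a block for the library number, the 4140 libraries alone and each library left out. The fits were also run on simulated counts with known fold changes, and the outcome is not reported here. Replicates were numbered in accession order, which pairs none of them. Depth was 17015581 to 32671039 gene reads; intervals for zeros cover counting error only.

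The members and lists were chosen with earlier results of these data known. Named genes were all members, up to 3 of each other list by mean CPM, any gene called, and the 5 nearest profiles to Anpep and Vil1. Further list genes, and the comparison by library number, were picked with their values in view.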

Additional observations from a re-analysis of the deposited data

How the results depend on the processing

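In the comparison of TP-DSCs with DP-DSCs, DESeq2 called 93 genes, and 267 without a low-count filter (added after seeing the data), against 0 in edgeR; 0 of the 6 members were called in each of these. The 3 other scalings, limma-voom, both other filters, the library number as a block, the 4140 libraries alone and each library left out gave 0 genes and 0 members called. Over the fits that leave out 1 library, the log2 fold change ran from -15.89 to 3.77 for Anpep. It was -5.87 in limma-voom, -3.68 with the block and -10.69 in the 4140 libraries alone. Without TP-DSCs replicate 1, and in the 4140 libraries alone, Anpep had no reads in TP-DSCs. The sizes of -15.89 and -10.69 are therefore set by zeros. The range was -0.21 to 0.11 for Ezr, -1.16 to 1.26 for Myo1a, -0.22 to 0.34 for Eps8 and -1.09 to 1.39 for Espn. Each of these genes, Anpep included, turned sign. Myo1a also turned to 0.090 with the number as a block and to 0.34 in the 4140 libraries alone, and was -3.67 in limma-voom. Eps8 turned to -0.089 in the 4140 libraries alone, and Espn to -3.27 in limma-voom. The cause of these turns was not tested. Myo1a and Espn had no reads in TP-DSCs replicate 3, and their limma-voom values include that zero. Vil1 (0.034 to 0.18 with 1 library left out), Cdhr2 (0.70 to 3.43) and Slc9a3r1 (-0.55 to -0.27) kept their sign in every fit run, and the members' median ran from -0.31 to 0.77. Between 3840 and 4140, DESeq2 called 1177 genes and 2 members and limma-voom 55 genes, against 0 in edgeR; without DP-DSCs replicate 3 edgeR called 7 genes, and 0 to 7 over all libraries left out, with 0 members in each. At 3 libraries a group, the standard errors of Anpep, Myo1a and Espn (2.67, 1.65 and 1.68 on the log2 scale) limit what could be detected.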

Other observations

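Close relatives of the members were present as well. Of 15 paralogs 13 were tested, 4 higher and 9 lower in TP-DSCs, with a median log2 fold change of -0.12 and 0 called by edgeR, DESeq2 or limma-voom. By library number, 1 had both 3840 libraries above all 4140 libraries and 6 had both below, against 9.95 and 13.5% of all tested genes. Eps8l3, an Eps8 relative, stood at 196, 42.4 and 45.8 CPM in DP-DSCs replicates 1, 2 and 3 and at 129, 87.0 and 49.6 CPM in TP-DSCs. Moesin (Msn), which shares its fold with ezrin, was lower in both 3840 libraries, at 94.6, 281 and 284 CPM in DP-DSCs and 73.0, 197.5 and 287 CPM in TP-DSCs. The log2 fold change by number, 3840 minus 4140, was 1.71 ± 0.34 (SE) for Eps8l3 (edgeR adjusted p = 0.219) and -1.52 ± 0.21 for Msn (edgeR adjusted p = 0.137; limma-voom adjusted p = 0.0425). Radixin (Rdx), the remaining relative of ezrin, averaged 144 CPM.

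Of 14 intestinal transcription factors 4 had no reads (Cdx1, Cdx2, Hnf4g and Isx) and 10 were tested. Of these, 2 were higher and 8 lower in TP-DSCs, with 0 called by edgeR, DESeq2 or limma-voom. In every TP-DSC library 1 of the 10 (Klf4) was higher and 1 (Gata4) lower, against 3.87 and 8.56% of all tested genes. These 10 are too few to read against such shares. The log2 fold change, TP-DSCs minus DP-DSCs, was 0.76 ± 0.19 (SE) for Klf4 and -1.20 ± 0.41 for Gata4. Their edgeR p was 0.00398 and 0.0208 before adjustment and 0.136 and 0.4895 after it. For Klf4 the DESeq2 adjusted p was 0.0511. Hnf4a, a regulator of brush border genes in the gut, averaged 182 CPM, with 224, 143 and 150 CPM in DP-DSCs and 223, 192 and 160 CPM in TP-DSCs. Both 3840 libraries were the highest. Of the 9 tested genes for apical trafficking and ezrin kinases, 0 were called by edgeR between the groups, and Myo5b, the motor lost in microvillus inclusion disease, averaged 92.9 CPM with 77.1 CPM in the lowest and 112 CPM in the highest library.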
